A study of Bos taurus with 27 samples.

Results

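The genes of immunoglobulin transport, FCGRT, PIGR and JCHAIN, were examined in the colon of newborn dairy calves. They were chosen by name, with earlier results of these data known, and each was kept where the gene names used with this study gave a single Ensembl identifier. FCGRT (ENSBTAG00000013926) and PIGR (ENSBTAG00000019798) were matched, so 2 of the 3 genes were followed among the 24616 genes in the count table. JCHAIN was not matched to an identifier under this symbol and is not analysed here. Its older symbol, IGJ, was not searched, so the gene may still be among those counted. In the RefSeq annotation of the assembly ARS-UCD2.0, which is later than the build of the counts, FCGRT lies between MIR150 and RCN3, and PIGR lies between FCMR and FCAMR, which encode receptors for IgM. Neither gene overlaps another in that annotation.

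The tissue was colon, collected at the age of 51 h from 27 Holstein bull calves. The first colostrum meal, pooled and pasteurized colostrum given by tube, was fed immediately after birth (TRT0), at 6 h (TRT6) or at 12 h (TRT12), with 9 calves in each treatment, and all calves later received milk replacer. The dam was a primiparous heifer (H) for 4 calves of each treatment and a multiparous cow (C) for the other 5, which gives the 6 groups TRT0_H, TRT0_C, TRT6_H, TRT6_C, TRT12_H and TRT12_C. Treatments came from the sample labels, whereas dam parity came only from the sample sheet of the study.

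The calf is born almost without circulating antibody, because the ruminant placenta does not pass it, and takes up maternal IgG from colostrum through the gut wall in the first day of life. FCGRT encodes the heavy chain of the neonatal Fc receptor, which pairs with beta-2-microglobulin, binds IgG in acidic endosomes, and carries it across cells or returns it to the circulation. PIGR encodes the polymeric immunoglobulin receptor, which moves polymeric IgA and IgM from the basolateral to the luminal face of epithelial cells and is cleaved there to leave secretory component on the antibody. JCHAIN encodes the joining chain made by plasma cells, which links these polymers and is needed for binding to the receptor. The comparisons asked whether the messenger RNA of these genes differed with the time of the first colostrum meal or with the parity of the dam.

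Gene counts summed to 1163791 to 4202593 per calf, with a median of 2215402, and levels are given in CPM, the count scaled to a sum of 1000000 per calf. FCGRT rested on 180 to 716 counts per calf and PIGR on 1213 to 7295. At the mean count of each gene, counting error alone gave a coefficient of variation of 5.38% and 1.87%. Both genes passed the filter on low counts and exceeded 1 CPM in all 27 calves. The library codes in the sample descriptions fell into 3 sets of 11, 11 and 5 calves. These sets were read as sequencing lanes 1 to 3, although no label uses that word, and the code of lane 3 also differs in its first number, so it may be another run. The lanes were unevenly filled, since lane 1 held no TRT0_C calf and lane 3 held no calf of TRT0_H, TRT6_H or TRT12_C. Markers of intestinal epithelium were present in all calves, as the summed level of the 9 epithelial markers matched lay between 2523 and 4460 CPM.

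FCGRT, the IgG receptor, varied little from calf to calf. Over the 27 calves it averaged 160 ± 18.7 CPM (SD), with a lowest value of 121, a median of 157 and a highest of 199 CPM. The highest calf stood 1.65-fold above the lowest, and the coefficient of variation was 11.7%. Because colon tissue was measured in bulk, fewer cells of a type and less RNA per cell cannot be told apart.

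In TRT0_H the 4 calves had FCGRT levels of 121, 153, 174 and 181 CPM. In TRT0_C the 5 calves had 141, 145, 166, 167 and 190 CPM. The lowest calf of the series was thus in the group fed at birth, and the remaining calves of that treatment overlapped fully between heifer and cow dams. In TRT6_H the levels were 136, 144, 145 and 175 CPM. In TRT6_C they were 134, 155, 157, 160 and 184 CPM. In TRT6_H a single calf stood above the rest, whereas TRT6_C was spread more evenly. In TRT12_H the levels were 148, 149, 166 and 170 CPM. In TRT12_C they were 154, 155, 167, 186 and 199 CPM. The highest calf of the series was in TRT12_C, but its group shared its lower range with all the other groups.

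**Figure D1:**
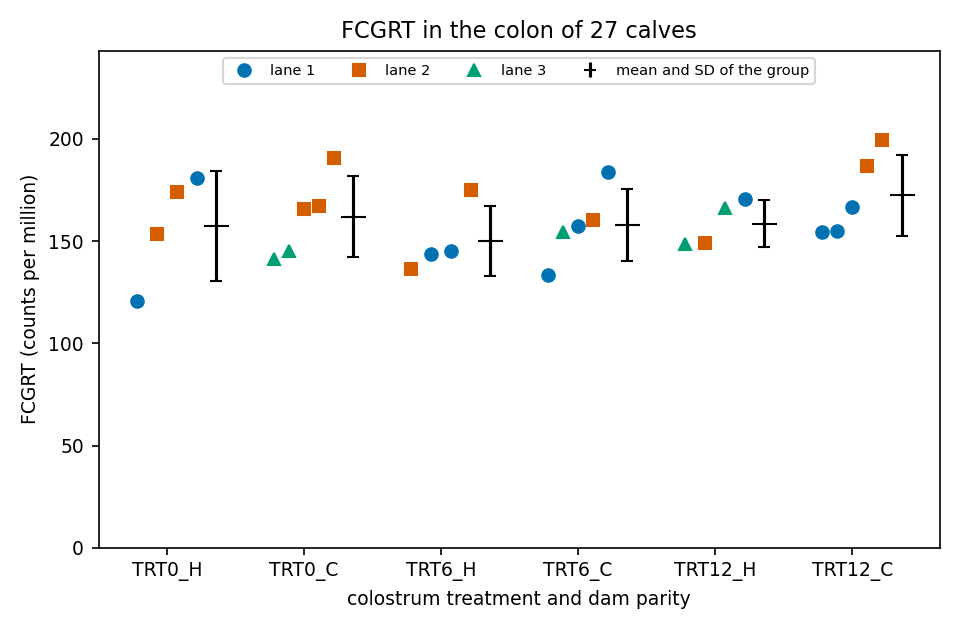
FCGRT level in CPM (vertical axis) in each of the 27 calves by colostrum treatment and dam parity, with symbols for the sequencing lane and the mean and SD of each group beside the points. The 6 group means lie between 150.1 and 172 CPM and the points of all groups overlap.

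By treatment, the mean FCGRT level was 160 ± 21.8 CPM for TRT0, 154 ± 16.9 CPM for TRT6 and 166 ± 17.4 CPM for TRT12 (SD over 9 calves each). By group the order rose from TRT6_H (150.1 CPM) through TRT0_H (157), TRT6_C (158), TRT12_H (158) and TRT0_C (162) to TRT12_C (172). No neighbours in this order differed by more than the larger SD of the pair. The widest step, from TRT0_C to TRT12_C, was 10.3 CPM against an SD of 20.0 CPM. Sorting places close means side by side, so this check does not cover groups farther apart. The first and last groups, TRT6_H (SD 17.1 CPM) and TRT12_C (SD 20.0 CPM), differed by more than the larger SD, and this pair was not tested.

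PIGR, the receptor for polymeric IgA and IgM, varied more from calf to calf. Over the 27 calves it averaged 1324 ± 348 CPM (SD), with a lowest value of 677, a median of 1318 and a highest of 1951 CPM. The highest calf stood 2.88-fold above the lowest, and the coefficient of variation was 26.3%. Both extremes were calves of multiparous cows, the lowest in TRT12_C and the highest in TRT6_C.

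In TRT0_H the PIGR levels were 1310, 1323, 1364 and 1929 CPM. In TRT0_C they were 823, 1089, 1235, 1454 and 1574 CPM. TRT0_H was the tightest group apart from 1 high calf, and TRT0_C reached lower values, with overlap between them. In TRT6_H the levels were 795, 991, 1318 and 1643 CPM. In TRT6_C they were 987, 1042, 1146, 1789 and 1951 CPM. TRT6_C therefore held 3 low and 2 high calves with none near its mean. In TRT12_H the levels were 1003, 1277, 1348 and 1736 CPM. In TRT12_C they were 677, 1088, 1495, 1548 and 1812 CPM. The TRT12_C calves covered most of the range of the whole series and enclosed all 4 TRT12_H calves.

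**Figure D2:**
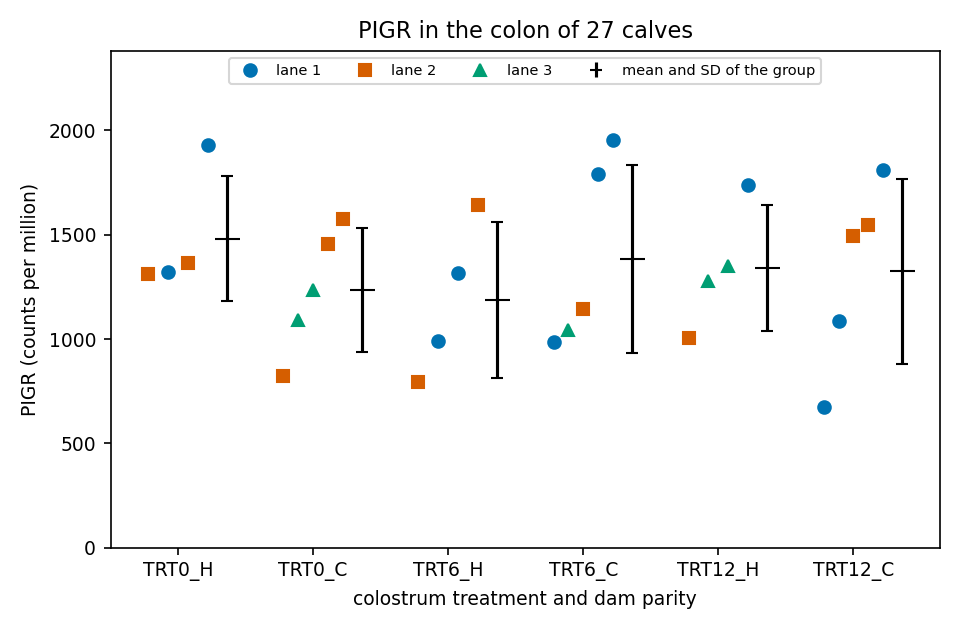
PIGR level in CPM (vertical axis) in each of the 27 calves by colostrum treatment and dam parity, with symbols for the sequencing lane and the mean and SD of each group beside the points. The spread within groups, such as 677 to 1812 CPM in TRT12_C, is wider than the distance between group means, which lie between 1187 and 1481 CPM.

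By treatment, the mean PIGR level was 1344 ± 308 CPM for TRT0, 1296 ± 406 CPM for TRT6 and 1331 ± 365 CPM for TRT12 (SD over 9 calves each). By group the order rose from TRT6_H (1187 ± 373 CPM) and TRT0_C (1235 ± 297) through TRT12_C (1324 ± 445), TRT12_H (1341 ± 302) and TRT6_C (1383 ± 452) to TRT0_H (1481 ± 299). Again no neighbours in the order differed by more than the larger SD of the pair, a check that leaves out groups farther apart. The first and last groups in the order were both from heifer dams, and they differed by less than the larger SD, 373 CPM.

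The spread between calves of the same group was also described by the biological coefficient of variation, the variation left after counting error is taken off. It was 0.157 for FCGRT, with 27.1% of the 13943 genes tested lower, and 0.300 for PIGR, with 81.9% lower. By this measure FCGRT was steadier than most genes tested in these calves, and PIGR was more variable than most. edgeR draws the value of each gene towards a trend, and the genes ranked were not matched by level. Whether either gene is steady or variable for its level was thus not tested.

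The effect of the time of the first meal was examined in a fit over all 27 calves with dam parity as a term, by the quasi-likelihood test of edgeR and Benjamini-Hochberg adjustment over 13943 genes. A gene was called at an adjusted p of at most 0.10 and a fold change of at least 1.2. For FCGRT the log2 fold change was −0.0091 (95% interval −0.22 to 0.20) in TRT6 vs. TRT0, 0.090 (−0.12 to 0.30) in TRT12 vs. TRT0 and 0.099 (−0.11 to 0.31) in TRT12 vs. TRT6. The adjusted p of FCGRT in TRT12 vs. TRT0 was 0.839. In fold terms FCGRT in TRT12 was 1.06 times TRT0, and the interval ran from 0.921 to 1.23.

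For PIGR the log2 fold change was −0.010 (95% interval −0.41 to 0.39) in TRT6 vs. TRT0, 0.019 (−0.38 to 0.42) in TRT12 vs. TRT0 and 0.029 (−0.37 to 0.43) in TRT12 vs. TRT6. The adjusted p of PIGR in TRT12 vs. TRT0 was 0.987. The fold in TRT12 vs. TRT0 was 1.01, and its interval, 0.767 to 1.34, was wider than that of FCGRT.

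Neither gene was called for the parity of the dam. In C vs. H the log2 fold change of FCGRT was 0.030 (95% interval −0.14 to 0.20) and that of PIGR was −0.075 (−0.40 to 0.26). FCGRT averaged 155 ± 18.1 CPM in the 12 H calves and 164 ± 18.9 CPM in the 15 C calves (SD). PIGR averaged 1336 ± 321 CPM in H and 1314 ± 380 CPM in C, so the parities overlapped over most of their range.

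Within parity or treatment, intervals were wider. Among the 9 such contrasts the log2 fold change of FCGRT farthest from 0 was 0.17 (95% interval −0.11 to 0.46) in TRT12_C vs. TRT0_C, with an adjusted p of 0.694 in edgeR's test. For PIGR it was −0.35 (−0.92 to 0.22) in TRT0_C vs. TRT0_H, followed by −0.28 (−0.89 to 0.32) in TRT6_H vs. TRT0_H and 0.21 (−0.33 to 0.76) in TRT6_C vs. TRT0_C. Both comparisons with TRT0_H contain its high calf of 1929 CPM, and leaving out single calves moved the log2 fold change of TRT0_C vs. TRT0_H between −0.43 and −0.21 and that of TRT6_H vs. TRT0_H between −0.51 and −0.098. PIGR had opposite signs in H and C calves for TRT6 against TRT0, and also for TRT12 against TRT0 (−0.16 in H and 0.18 in C). However, the interaction of treatment and parity was not called for PIGR, with an F of 0.811 and an adjusted p of 0.999 in edgeR's test across all genes. For FCGRT the interaction F was 0.436, also with an adjusted p of 0.999.

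Thus 0 of the 2 genes were called in any of the 13 contrasts, against a background of 0% of all genes tested in each contrast, and in the interaction the background was 0.00717%, which was the single gene RGS2. The contrasts held 251 to 1376 genes at an unadjusted p under 0.05, and neither FCGRT nor PIGR was among them. DESeq2 called 0 to 51 genes per contrast, most of them in TRT12 vs. TRT0, and edgeR's likelihood ratio test called 0 to 2, again without either gene. Exact permutation tests of the CPM (two-sided, 100000 resamples for C vs. H) gave a lowest p of 0.166 in 26 tests, for FCGRT in TRT12 vs. TRT6, and a lowest adjusted p of 0.963. In 0 of the 26 were the groups free of overlap. The share of all genes with groups free of overlap was not computed, so this count says nothing particular to FCGRT and PIGR.

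**Figure D3:**
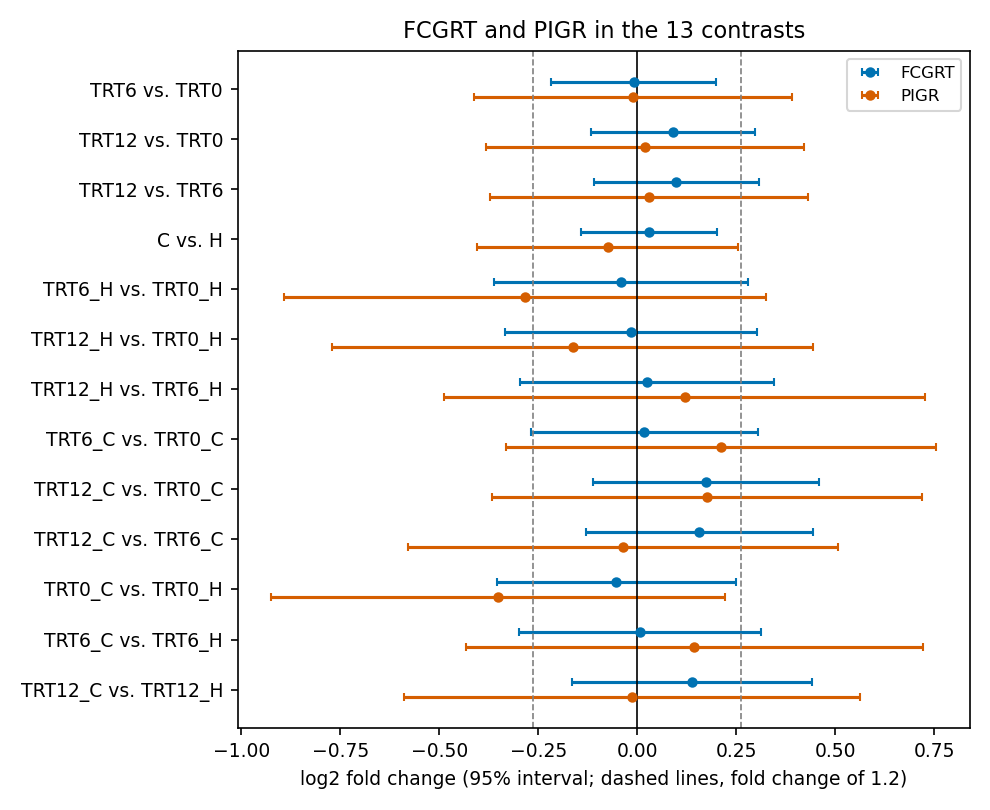
Log2 fold change (horizontal axis) of FCGRT and PIGR in the 13 contrasts, with bars for the 95% interval and dashed lines at a fold change of 1.2. All 26 intervals include 0, and those of PIGR, for example −0.92 to 0.22 in TRT0_C vs. TRT0_H, are wider than those of FCGRT.

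Because treatments and parities were unevenly spread over the lanes, the genes were also compared by lane. FCGRT averaged 156 CPM in lane 1, 169 in lane 2 and 151 in lane 3. PIGR averaged 1418, 1287 and 1198 CPM in the same order. With the 6 groups in the fit, edgeR's F test between lanes gave an adjusted p of 0.970 for FCGRT and 0.745 for PIGR, while 4.19% of all genes were called between lanes at an adjusted p of 0.10. With lane as a term, 0 of the 2 genes were called in the contrasts. In that fit 0 to 4 of the 13943 genes tested were called per contrast, the 4 in TRT12_C vs. TRT0_C.

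FCGRT and PIGR rose and fell together by rank over the calves. Spearman's rho of log2(CPM + 1) was 0.511 (permutation p = 0.00714, adjusted p = 0.0393 over 11 relations, n = 27), and Pearson's r was 0.36 (p = 0.0669, adjusted p = 0.366). The relation was not particular to this pair. By rho with FCGRT, PIGR ranked 166 among 3713 named genes, and by rho with PIGR, FCGRT ranked 19. With the 2 calves farthest from the median of FCGRT left out, r was 0.41. Within lane 1 r was 0.39 and rho 0.591, and within lane 2 r was 0.45 and rho 0.509 (n = 11 each), with no adjusted p under 0.05 in either lane, and lane 3 held too few calves. A single calf, TRT0 replicate 7, combined a high FCGRT level (190 CPM) with a low PIGR level (823 CPM), and without it r was 0.51 (adjusted p = 0.0432). The adjusted p of rho passed 0.05, reaching at most 0.0845, without any one of TRT0 replicates 1, 2, 3, 6, 8 and 9, TRT6 replicates 1, 2, 3, 4 and 5, and TRT12 replicates 2, 3, 4, 6, 7 and 9. With values centred within the 6 groups, rho was 0.401 (adjusted p = 0.217).

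Each gene was also compared with the summed CPM of the 9 epithelial markers, namely EPCAM, CDH1, KRT8, KRT18, KRT19, VIL1, ELF3, LGALS4 and CLDN7. FCGRT rose with this sum, with r = 0.57 (permutation p = 0.00208, adjusted p = 0.0229) and rho = 0.577 (p = 0.00224, adjusted p = 0.0246) over 27 calves. With the 2 calves farthest from the median of the sum left out, r was 0.59. Within lanes 1 and 2 r was 0.67 in each (n = 11), with adjusted p of 0.285 and 0.264. The adjusted p of r lay just past 0.05, between 0.051 and 0.0582, without TRT0 replicate 5, TRT12 replicate 2 or TRT12 replicate 6, and that of rho lay between 0.0518 and 0.0645 without TRT0 replicate 1, TRT12 replicate 2 or TRT12 replicate 6. Taken singly, the 9 markers had rho with FCGRT from 0.013 (LGALS4) to 0.728 (KRT19), with a median of 0.434. For the 7 smooth muscle markers rho with FCGRT ran from 0.241 to 0.462, with a median of 0.300.

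PIGR, itself an epithelial gene, gave r = 0.20 (permutation adjusted p = 0.623) and rho = 0.302 (adjusted p = 0.352) with the same sum. Within lane 1 its r was 0.28 and within lane 2 it was 0.26. With TMM-scaled library sizes r was 0.39 (adjusted p = 0.126) and rho was 0.449 (adjusted p = 0.0731), and the values of FCGRT on that scale were 0.71 and 0.734. Whether the relations of FCGRT and PIGR with the epithelial sum differ from each other was not tested. For the goblet cell, endothelium, smooth muscle and fibroblast lists, the 8 relations with FCGRT or PIGR had r between −0.13 and 0.32 and rho between −0.18 and 0.32, with a lowest adjusted p of 0.366 for r and 0.352 for rho. With TMM-scaled library sizes FCGRT and the smooth muscle sum had r = 0.44 (permutation adjusted p = 0.0825) and rho = 0.334 (adjusted p = 0.247).

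**Figure D4:**
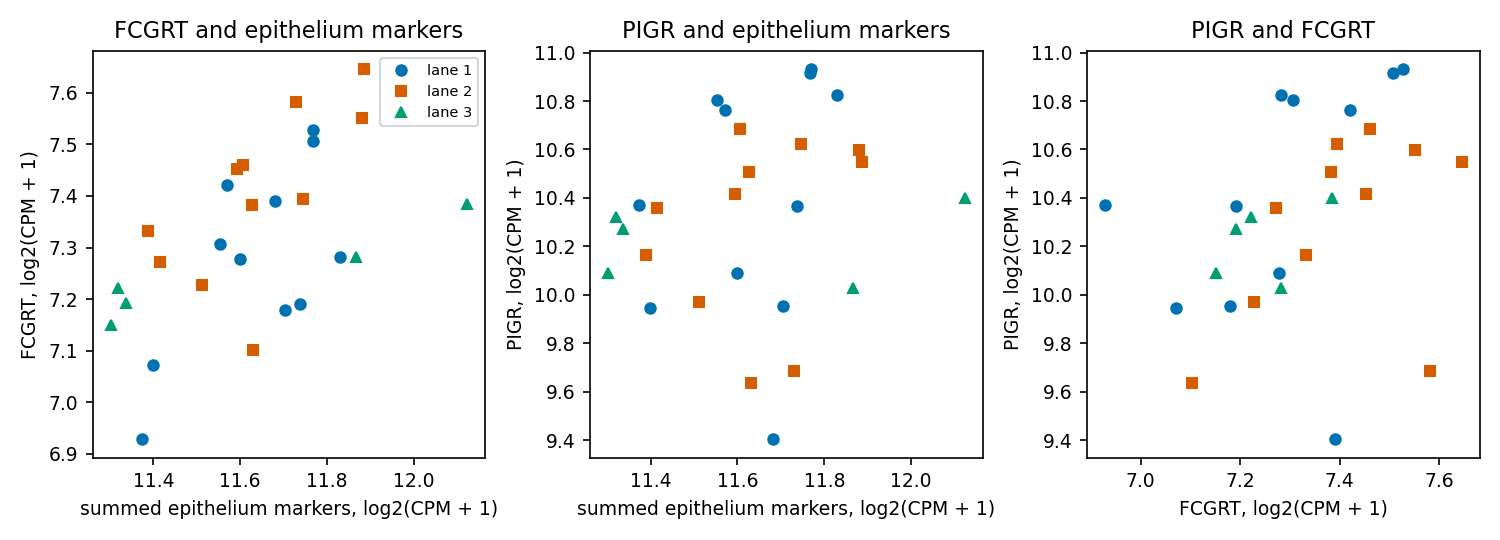
FCGRT and PIGR against the summed epithelial markers, and PIGR against FCGRT, all as log2(CPM + 1), with 1 point per calf and symbols for the sequencing lane. With the epithelial sum r is 0.57 for FCGRT and 0.20 for PIGR on this scale, against 0.71 and 0.39 with TMM-scaled library sizes, and in the right panel most calves rise together, with TRT0 replicate 7 at 190 CPM of FCGRT and 823 CPM of PIGR apart from them.

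The epithelial sum itself had a lowest value of 2523, a median of 3089 and a highest of 3486 CPM in TRT0. The same values were 2681, 3170 and 3732 CPM in TRT6, and 2555, 3282 and 4460 CPM in TRT12. The medians thus stood in the order of the feeding times, with wide overlap. With the sum as a term in the fit, the log2 fold change in TRT12 vs. TRT0 was −0.000862 for FCGRT and −0.092 for PIGR, in place of 0.090 and 0.019. Neither was called there, and 0 of the 13943 genes tested were.

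The levels of other genes over the calves were compared with those of FCGRT and PIGR by Spearman's rho of log2(CPM + 1), as a description over 27 calves that share libraries and depth. Among named genes, those most like FCGRT were PPDPF (rho 0.803), RPS2 (0.791), SLC25A6 (0.783), APLP2 (0.769) and RPL13 (0.769). Those most like PIGR were RPL32 (0.687), LOC101902561 (0.639), UTP14A (0.619), GCHFR (0.603) and EIF3D (0.598). RPS2, RPL13 and RPL32 encode ribosomal proteins, a family with many near-identical copies in mammalian genomes, and the counting step dropped reads that fell on several genes, so their counts are uncertain. The order depended on the scaling. With TMM-scaled library sizes RPL32 stayed first for PIGR, whereas for FCGRT the genes RPS2, SLC25A6 and RPL13 fell to ranks 121, 284 and 343, and PPDPF and APLP2 stood at ranks 16 and 18.

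The machinery that carries the receptor with its polymeric cargo across the epithelial cell was followed through 9 of 10 listed genes, those matched to an identifier. MYO5B, a motor of apical recycling endosomes, averaged 171 CPM over the calves, YES1, a Src-family kinase, 100.0 CPM, and RAB11A, a small GTPase of recycling endosomes, 76.6 CPM. Called higher or lower in the 13 contrasts were 0 of 9 genes. In TRT12 vs. TRT0, 7 of 9 had a log2 fold change above 0, with a median of 0.21 beside −0.0039 over all genes tested. Of these, AP1M2, an adaptor subunit of sorting to the basolateral surface, gave 0.35 (edgeR adjusted p = 0.424), and RAB25, an epithelial GTPase of apical recycling, gave 0.43 (adjusted p = 0.457). These were the 2 of 9 genes of the list at an unadjusted p under 0.05 in this contrast, where 9.37% of all genes tested were, and they are named here after their values were seen. In the contrasts within parity the genes at that level were RAB25 (log2 fold change 0.58) and AP1M2 (0.50) in TRT12_C vs. TRT0_C, EXOC4 (−0.30) in TRT12_C vs. TRT6_C and RAB3D (−0.41) in TRT12_H vs. TRT0_H. Of all genes tested, 9.87%, 6.71% and 3.56% were at that level in these contrasts, in the same order. The 9 epithelial markers lay on the same side, with a median log2 fold change of 0.23, all 9 above 0, 3 of them at an unadjusted p under 0.05 and a lowest adjusted p of 0.434, and their part in the values of the transport list was not tested. In TRT6 vs. TRT0 the median of the transport list was 0.11 and that of the epithelial markers 0.15, with 0 genes of either called. Other marker lists lay to one side as well, with 0 genes called. The 3 goblet cell markers were all above 0 in TRT12 vs. TRT0 (median 0.31), and the 5 fibroblast markers were all below 0 in TRT12 vs. TRT0 (median −0.18) and in TRT6 vs. TRT0 (median −0.29, 2 of 5 at an unadjusted p under 0.05, against 3.14% of all genes tested). For the fibroblast markers in TRT12 against TRT0, most signs were unlike in H and C calves. In the interaction of treatment and parity, 0 of the 5 were at an unadjusted p under 0.05 (edgeR, lowest adjusted p = 0.999). In TRT12_H vs. TRT0_H all 5 lay below 0 (median −0.50), each at an unadjusted p under 0.05, against 3.56% of all genes tested. Their lowest adjusted p in edgeR was 0.999965. In that contrast 0 of 7 smooth muscle markers (median −0.36) and 0 of 3 endothelium markers (median −0.32) lay above 0. The fibroblast sum averaged 9388 CPM in lane 1, 12937 in lane 2 and 8995 in lane 3. Lane 3 held 2 TRT12_H calves and 0 TRT0_H calves, and the part of lane was not tested. In TRT12_C vs. TRT0_C 4 of the 5 fibroblast markers lay above 0 (median 0.094), as did 6 of 7 smooth muscle and 3 of 3 endothelium markers.

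Signals known to raise PIGR were followed through 4 of 14 listed genes, those matched to an identifier. The others lacked a match by name and may still have been counted. Among them were NFKB1 and TLR4, for which the paper gives levels in these calves. IFNGR1, a chain of the interferon gamma receptor, averaged 106 CPM, STAT6, a transcription factor of interleukin-4 signalling, 96.7 CPM, and IRF1, a transcription factor of interferon responses, 90.4 CPM. In TRT12 vs. TRT0 the log2 fold change was 0.11 for IFNGR1, −0.027 for STAT6 and 0.40 for IRF1, with a list median of 0.14, 3 of 4 above 0 and a lowest adjusted p of 0.543. In C vs. H all 4 lay below 0, with a median of −0.11. None of the 4 was called in any contrast. At an unadjusted p under 0.05 there was 1 gene, IRF1, in TRT6_H vs. TRT0_H (log2 fold change 0.63) and in TRT12_H vs. TRT0_H (0.81), where 4 of 4 lay above 0, and 0 in the other contrasts. The edgeR adjusted p of IRF1 was 0.999945 and 0.999965, and 3.34% and 3.56% of all genes tested were at an unadjusted p under 0.05.

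Of the 15 genes of IgA induction and homing, 2 were matched. TGFBR2, a receptor chain for the cytokine that drives the switch to IgA, averaged 151 CPM and had a log2 fold change of −0.10 in TRT12 vs. TRT0. CCL28, the epithelial chemokine that draws IgA plasma cells to mucosa, averaged 6.16 CPM and had 0.15. The 2 plasma cell genes matched, XBP1 and SDC1, are also expressed by epithelium and cannot stand for plasma cells. No gene of the list of IgG Fc receptors and partners or of the B cell or T cell markers was matched, and 0 of the matched genes of any list were called in the 13 contrasts. Beta-2-microglobulin, the partner of FCGRT, and the cells that make the antibodies were thus not analysed here.

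**Figure D5:**
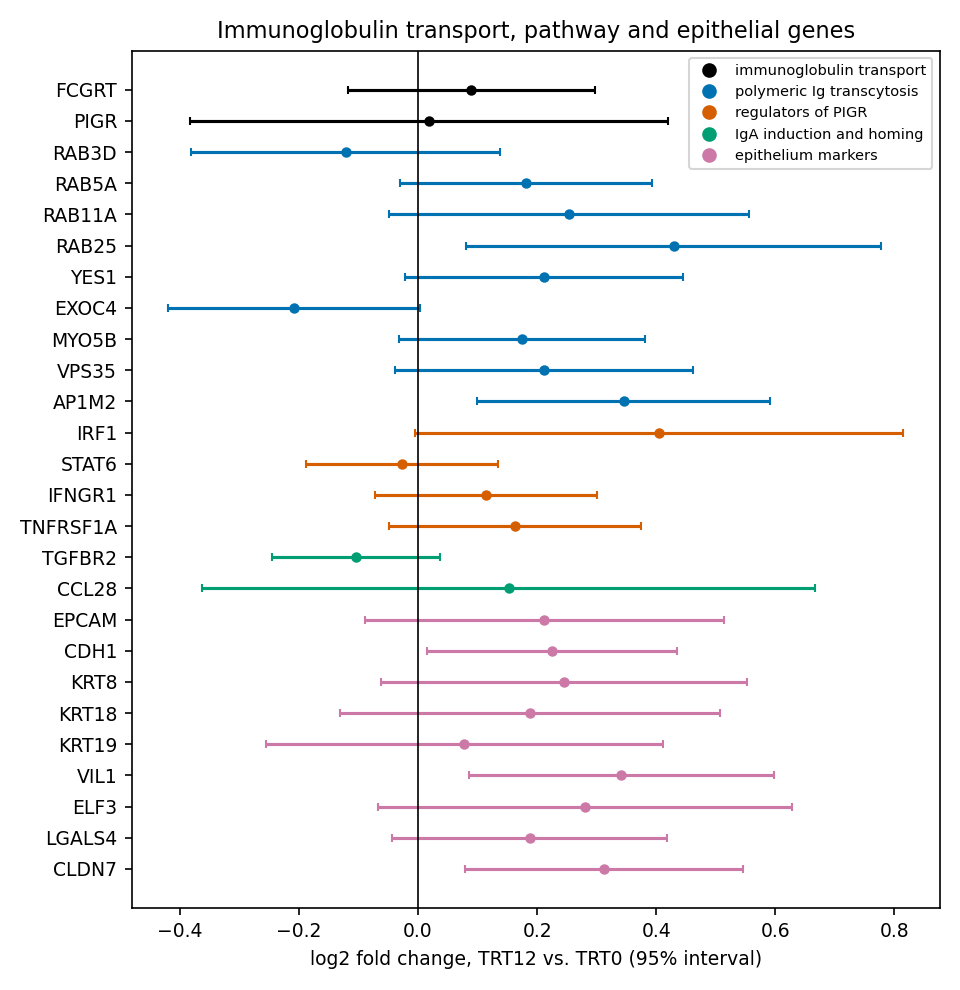
Log2 fold change in TRT12 vs. TRT0 (horizontal axis) with 95% intervals for FCGRT and PIGR, the matched genes of the 3 pathway lists and the epithelial markers, coloured by list. FCGRT (0.090) and PIGR (0.019) lie near 0, and the highest of the transport genes is RAB25 (0.43).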

How the data were processed

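The authors aligned reads to UMD3.1 with TopHat 2.1.1, sorted them with SAMtools 1.4 and deposited the raw read counts of HTSeq per Ensembl gene. Reads falling on several genes were dropped. Counts summed to 6.61% to 8.29% of the mapped reads in the sample sheet of the study, and no reason for this is given in the sources used here. All 351 pairs of calves differed by more than sampling noise (lowest chi-square per degree of freedom 3.01), and replicate numbers follow accession order.

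Genes with at least 1 CPM in 5 of 9 calves of each treatment were kept (13943). edgeR 4.0.16 (R 4.3.3, limma 3.58.1) was run with TMM factors: 9 contrasts and the interaction on 6 group means, and 4 contrasts with additive treatment and parity. Group means share one estimate of the spread. Other values were computed in Python 3.11.15 with scipy 1.17.1. Intervals for counting error do not cover differences between calves. Each calf is 1 animal and 1 library.

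Gene names came from the study's name tables (4044 identifiers), and the RefSeq table in use (ARS-UCD2.0) gave no further identifiers. In each list the 3 matched genes with the highest mean CPM were named, together with the 5 genes most like FCGRT and PIGR. A further gene listed among the regulators of PIGR is not reported here and was left out of the counts and medians of its list. The genes, lists and tests were chosen with earlier results of these data known. Dam parity is not in the labels. Alternatives were DESeq2 1.42.0, the likelihood ratio test, other scalings, filters and covariates, only the compared calves, and leaving out each calf. The edgeR fits were tested on simulated data.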

Additional observations from a re-analysis of the deposited data

Results flagged for a closer look

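A single PIGR value stood far from the rest of its group. TRT0 replicate 6, a TRT0_H calf, had 1929 CPM, whereas the nearest of the other 3 calves had 1364 CPM, and this gap was 0.914 of the range of the group. It was the only value past Dixon's 95% limit among the 18 sets of calves tested, and chance gives about 1 such set in 20. PIGR rested on 4278 counts in this calf, its epithelial sum was 3486 CPM, and its FCGRT level was 181 CPM.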

How the results depend on the processing

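Under every alternative, 1060 fits of FCGRT and PIGR in the contrasts and the interaction gave 0 calls, with adjusted p between 0.427 and 1. Several small differences changed sign. With library totals without TMM factors the log2 fold change of FCGRT was 0.013 in TRT12_H vs. TRT0_H, −0.037 in TRT6_C vs. TRT0_C and 0.046 in TRT0_C vs. TRT0_H, and that of PIGR was −0.015 in TRT12 vs. TRT0. With mapped reads as library size FCGRT gave 0.077, −0.080 and 0.051 in the same 3 contrasts and −0.00652 in TRT12_C vs. TRT12_H, and PIGR gave −0.026 in TRT12 vs. TRT0; this scaling moved the median of all genes by −0.14 to 0.10 depending on the contrast. With lane in the fit FCGRT gave 0.00243 in TRT12_H vs. TRT0_H and PIGR −0.028 in TRT12 vs. TRT0. With the epithelial sum in the fit FCGRT gave −0.012 in TRT6_C vs. TRT0_C and −0.000862 in TRT12 vs. TRT0, and PIGR gave −0.000891 in TRT12_C vs. TRT0_C, −0.092 in TRT12 vs. TRT0 and −0.027 in TRT12 vs. TRT6. In the permutation tests TMM-scaled CPM turned the difference of FCGRT to −2.13 CPM in TRT12_H vs. TRT0_H, 2.22 in TRT6_C vs. TRT0_C and −6.16 in TRT0_C vs. TRT0_H, and that of PIGR to 14.8 in TRT12 vs. TRT0; within lanes PIGR gave −73.3 in TRT6_C vs. TRT0_C.

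Leaving out each calf in turn changed the sign of some differences, each crossing 0. For FCGRT the log2 fold change ranged from −0.00507 to 0.065 in C vs. H, −0.14 to 0.015 in TRT0_C vs. TRT0_H, −0.11 to 0.052 in TRT12_H vs. TRT0_H, −0.067 to 0.14 in TRT12_H vs. TRT6_H, −0.068 to 0.026 in TRT6 vs. TRT0, −0.10 to 0.065 in TRT6_C vs. TRT0_C, −0.11 to 0.12 in TRT6_C vs. TRT6_H and −0.16 to 0.051 in TRT6_H vs. TRT0_H. For PIGR it ranged from −0.073 to 0.10 in TRT12 vs. TRT0, −0.067 to 0.17 in TRT12 vs. TRT6, −0.19 to 0.19 in TRT12_C vs. TRT12_H, −0.21 to 0.20 in TRT12_C vs. TRT6_C, −0.083 to 0.35 in TRT12_H vs. TRT6_H, −0.14 to 0.078 in TRT6 vs. TRT0, −0.021 to 0.30 in TRT6_C vs. TRT0_C and −0.089 to 0.37 in TRT6_C vs. TRT6_H.

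With the 10 highest genes left out of the totals the mean CPM rose by construction, for FCGRT to 256, 251 and 265 and for PIGR to 2168, 2106 and 2127 in TRT0, TRT6 and TRT12. For PIGR with FCGRT, TMM-scaled library sizes gave r = 0.52 (adjusted p = 0.03), rho lost its call within lane 1 (0.591), within lane 2 (0.509) and centred within groups (0.401), and leaving out single calves gave r from 0.30 to 0.51 and rho from 0.474 to 0.659. For FCGRT with the epithelial sum, r and rho lost their calls within lane 1 (0.67 and 0.527) and within lane 2 (0.67 and 0.636), where fewer calves were tested, and leaving out single calves gave r from 0.53 to 0.61 and rho from 0.533 to 0.627. No paired analysis was possible because the labels give no replicate number shared between calves. Apart from the lanes and single calves, the cause of these changes was not tested. Depth limited FCGRT more than PIGR, since its counting error was 5.38% against 1.87%.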
